A study of Mus musculus with 9 samples.

Results

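The mitochondrial ribosomal proteins were taken as every probe set of the array with a single gene symbol of the form Mrpl or Mrps followed by a number. This rule gave 85 of 28815 probe sets, for 77 genes. The large subunit (Mrpl symbols) held 53 probe sets for 48 genes and the small subunit (Mrps symbols) held 32 for 29 genes, and 8 genes had more than 1 probe set. Affymetrix Mouse Gene 1.0 ST arrays were used to profile the liver RNA of 9 female mice, each on its own array, and the question was how short-term calorie restriction and loss of DGAT1, an enzyme of triglyceride synthesis, each alter liver mRNA. The groups, of 3 mice each, were wild-type mice fed ad libitum (WTAL), wild-type mice on a restricted diet that was tightened in steps (WTCR) and Dgat1-/- mice fed ad libitum (Dgat1-/-AL). The labels give a C57BL/6J background and an age of 15 to 16 months for all 9 mice, and the study's mice ate standard chow except that WTCR mice were switched to a restricted diet. The Dgat1 deletion is carried in every tissue of the mouse, so it does not single out the liver.

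The mitochondrial ribosome translates the few mRNAs encoded by mitochondrial DNA, all of which specify subunits of the respiratory chain and ATP synthase. Its ribosomal RNAs come from mitochondrial DNA, while its proteins are encoded in the nucleus, made in the cytosol and imported. Some of these proteins have a counterpart in the bacterial ribosome and others are found only in mitochondria. The liver is rich in mitochondria, and hepatocytes depend on them for fatty acid oxidation and the urea cycle.

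Some features of the arrays bear on what follows. The Dgat1 probe set, which checks the labels, read 7.86, 5.67 and 8.04 (log2) in the WTAL arrays and 5.39 to 6.14 in Dgat1-/-AL, so the array labelled WTAL replicate 2 goes against its label, and Dgat1-/-AL replicate 1 lay far from all other arrays on the second principal component (-42.1). Results were therefore also computed without both arrays. The 7 hepatocyte markers measured read 10.4 to 14.3 in every array. Each mRNA level is an average over the whole liver sample, in which fewer cells of a type and less RNA per cell cannot be told apart. Of the members, 83 of 85 had a mean signal above the median of all probe sets, and within groups the SD over mice had a median of 0.10 in WTAL, 0.10 in WTCR and 0.16 in Dgat1-/-AL on the log2 scale.

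Under calorie restriction few members were called, and the set as a whole lay slightly above WTAL. A probe set was called where its fold exceeded 1.3 and its unadjusted limma p was under 0.05. In WTCR livers 3 members were called higher and 1 lower than in WTAL, against 4.25% called higher and 3.81% called lower among all probe sets (8.06% in either direction), so the members were not called more often than the array at large. Among the 14407 brighter probe sets, those with a mean above the median, 7.66% were called higher and 6.32% lower. The members were called less often than these. The calls were Mrps26, Mrps33 and Mrps23, all 3 in the small subunit and higher, and Mrpl1 of the large subunit, which was lower. Below that threshold, 62 of 85 members (72.9%) lay above 0, compared with 50.8% of all probe sets and 55.8% of the brighter 14407, and the median log2 difference was 0.12 (quartiles -0.02 and 0.24) against 0.0023 for all and 0.03 for the brighter probe sets. In 28 members (32.9%) all 3 WTCR arrays exceeded all 3 WTAL arrays, against 11.2% of all probe sets and 18.9% of the brighter ones. All 3 WTCR arrays were lower in 6 members (7.06%), against 8.44% of all probe sets and 11.6% of the brighter ones. At an unadjusted p under 0.05 with no fold threshold, 14 members were higher (8.36% of all probe sets) and 3 lower (6.69%). Mrps26 and Mrps33 also had an adjusted p under 0.05, as 1.49% of all probe sets did on the higher side.

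Mrps26, a small subunit protein without a bacterial counterpart, changed most. Its log2 signal was 7.82, 7.87 and 7.71 in the WTAL arrays and 8.63, 8.40 and 8.38 in the WTCR arrays. The lowest WTCR value stood well above the highest WTAL value. The difference was 0.67 ± 0.11 (SE, n = 3 mice per group), 1.59-fold, with an adjusted p of 0.020 over all probe sets. The Dgat1-/-AL arrays read 7.87, 7.50 and 7.61, overlapping WTAL, with a difference of -0.14 ± 0.11 that was not called. Leaving out any 1 of the 9 arrays kept the WTCR call, with differences of 0.59 to 0.71.

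Mrps33 and Mrps23 are likewise small subunit proteins specific to mitochondria. Mrps33 has a pair of probe sets on the array. Probe set 10563829 of Mrps33 read 8.71, 8.56 and 8.79 in WTAL and 9.03, 9.03 and 9.24 in WTCR, a difference of 0.41 ± 0.09 (adjusted p = 0.042). Probe set 10544243 of Mrps33 read 8.38, 8.14 and 8.37 in WTAL and 8.59, 8.59 and 8.75 in WTCR, a difference of 0.34 ± 0.09 that stayed under the fold threshold. Both separated the groups in the same direction, and their mean over the gene, 0.37, also stayed under the threshold. The call of Mrps33 was lost without WTAL replicate 2 (0.345) or WTCR replicate 3 (0.34), without both arrays that stood apart (0.345) and after a second quantile normalization (0.37). Mrps23 read 7.92, 8.17 and 8.17 in WTAL and 8.46, 8.51 and 8.54 in WTCR, a difference of 0.41 ± 0.10 (adjusted p = 0.072). Its WTCR values were the tightest of the 3 groups and all lay above WTAL, and the call was lost without WTAL replicate 1 (0.33) or after a second quantile normalization (0.36).

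Mrpl1, the counterpart of the bacterial protein of the mobile stalk near the tRNA exit site, was the only member called lower in WTCR. It read 8.54, 8.34 and 8.42 in WTAL and 7.90, 7.93 and 8.01 in WTCR. The groups did not overlap, and the difference was -0.49 ± 0.19 (adjusted p = 0.25). In Dgat1-/-AL it read 7.97, 8.81 and 8.61, a wide spread with a mean close to WTAL (difference 0.03). Since all 9 arrays share 1 estimate of the spread, that width entered the p-value, and the call was lost without WTAL replicate 1 (-0.43) or 3 (-0.49) or WTCR replicate 1 (-0.46) or 2 (-0.48).

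**Figure D1:**
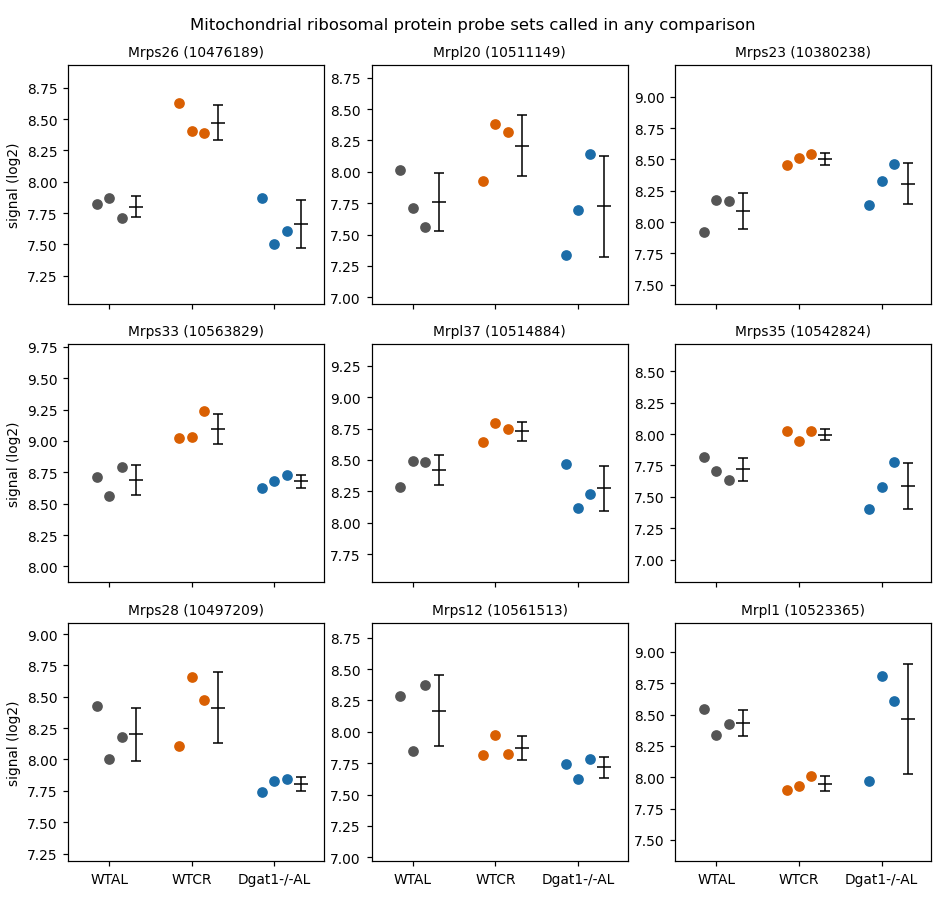
Log2 signal (y axis, a span of 1.9 in each panel) of the 9 probe sets called in any comparison, by group (x axis). Points are arrays in the order of their replicate numbers, and the bar beside them is the mean ± SD (n = 3). In Mrps26 the WTCR arrays lie at 8.38 to 8.63, above every array of the other groups, and in Mrps28 and Mrps12 all Dgat1-/-AL arrays lie below WTAL.

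The windows of 250 bases before the start of these genes show where the first transcribed bases lie and which known promoter letters precede them. RefSeq windows on build GRCm38.p6 were found for 68 of the 77 member genes, and those of the 4 genes called in WTCR and of Mrps12, called in Dgat1-/-AL, are printed 5′ to 3′ on the gene's own strand, ending at the base before the start. The letters searched, on both strands, were the NRF1 palindrome, CCGGAAG for the ETS family that includes GABPA, AAGATGGCG for YY1, CACGTG for the E-box, CCAAT and TATAAA, and matches are in capitals. CCAAT on the other strand reads ATTGG, and CCGGAAG reads CTTCCGG. The windows are Mrps26 (chr2:130563507-130563756, plus strand), Mrps33 (chr6:39810937-39811186, minus strand), Mrps23 (chr11:88204138-88204387, plus strand), Mrpl1 (chr5:96209865-96210114, plus strand) and Mrps12 (chr7:28741822-28742071, minus strand).
Mrps26: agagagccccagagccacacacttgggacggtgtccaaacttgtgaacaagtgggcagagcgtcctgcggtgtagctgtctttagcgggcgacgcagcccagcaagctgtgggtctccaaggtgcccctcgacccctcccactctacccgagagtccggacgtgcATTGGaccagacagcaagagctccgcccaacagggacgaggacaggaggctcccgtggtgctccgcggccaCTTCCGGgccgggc
Mrps33: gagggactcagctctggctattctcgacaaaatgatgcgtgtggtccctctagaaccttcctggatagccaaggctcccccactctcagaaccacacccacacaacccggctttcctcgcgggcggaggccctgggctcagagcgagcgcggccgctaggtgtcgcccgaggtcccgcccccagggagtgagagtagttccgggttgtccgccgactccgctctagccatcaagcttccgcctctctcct
Mrps23: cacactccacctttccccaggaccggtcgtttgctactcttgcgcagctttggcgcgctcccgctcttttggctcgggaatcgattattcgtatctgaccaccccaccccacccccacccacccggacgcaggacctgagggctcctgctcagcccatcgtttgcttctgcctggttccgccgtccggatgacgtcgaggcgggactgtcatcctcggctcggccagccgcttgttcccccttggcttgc
Mrpl1: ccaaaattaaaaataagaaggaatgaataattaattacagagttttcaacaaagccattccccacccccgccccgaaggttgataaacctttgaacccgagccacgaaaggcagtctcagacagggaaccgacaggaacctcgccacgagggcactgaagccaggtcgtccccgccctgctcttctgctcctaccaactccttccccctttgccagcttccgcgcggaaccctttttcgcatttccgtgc
Mrps12: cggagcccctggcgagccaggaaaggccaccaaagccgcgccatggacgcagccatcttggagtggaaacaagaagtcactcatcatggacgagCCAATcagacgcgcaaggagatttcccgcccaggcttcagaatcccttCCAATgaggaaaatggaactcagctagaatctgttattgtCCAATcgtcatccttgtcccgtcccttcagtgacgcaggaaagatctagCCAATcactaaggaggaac
Mrps26 held an ETS match 14 bases before the start and a CCAAT match 85 bases before it. Mrps12 held 4 CCAAT matches, the nearest 19 bases before the start, while none of the 6 sets of letters occurred in the windows of Mrps33, Mrps23 and Mrpl1.

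Across the member genes, promoters rich in CpG prevailed, with a median of 17 CpG per window against 6 over all 27025 promoters. NRF1, a transcription factor known to act on nuclear genes for mitochondrial proteins, had a match in 14.7% of member windows against 3.86% of all and 7.26% of the 5795 windows with 11 to 21 CpG, the middle range of the members. By subunit, 9 of 42 large subunit windows (21.4%) and 1 of 26 small subunit windows (3.85%) held it. The 9 were Mrpl9, Mrpl12, Mrpl17, Mrpl30, Mrpl32, Mrpl39, Mrpl44, Mrpl45 and Mrpl57, and the small subunit gene was Mrps21. ETS letters occurred in 23.5% of member windows, against 7.05% of all and 14.3% of the windows with 11 to 21 CpG, at 23.8% in the large and 23.1% in the small subunit. YY1 letters occurred in 2.94% of members (0.607% of all), the E-box in 7.35% (6.05%), CCAAT in 35.3% (34.5%) and TATAAA in 5.88% (13.0%). In the windows with 11 to 21 CpG the shares were 1.48% for YY1, 9.46% for the E-box, 38.5% for CCAAT and 5.19% for TATAAA. Beside these windows the members were thus not poorer in TATAAA and not richer in the E-box. The median WTCR difference was 0.11 for the 10 genes with an NRF1 match and 0.10 for the 58 without. It was 0.14 with and 0.09 without ETS letters, 0.23 and 0.10 for the E-box (5 genes with it), 0.05 and 0.12 for CCAAT, 0.16 and 0.10 for YY1 (2 genes) and 0.21 and 0.09 for TATAAA (4 genes). These differences were not tested. Among the 10 genes with an NRF1 match limma called 0 in WTCR, and Mrpl9, Mrpl17 and Mrpl30 were higher at an unadjusted p under 0.05. Over all probe sets 8.06% were called and 8.36% were higher at that p. With only 10 genes, the absence of a call says little about them.

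Read as a whole, the large and the small subunit had similar medians in WTCR. The median log2 difference was 0.11 for the 53 large subunit probe sets and 0.13 for the 32 small subunit probe sets, with 40 and 22 of them above 0. Averaged over its probe sets, the large subunit stood 0.05, 0.15 and 0.09 above the WTAL mean in the 3 WTCR arrays and the small subunit 0.07, 0.18 and 0.10. Every one of these values exceeded the highest WTAL array (0.02 for the large and 0.03 for the small subunit). The Dgat1-/-AL arrays stood at -0.11, 0.02 and 0.12 for the large and -0.07, -0.03 and 0.02 for the small subunit. For the large subunit, Dgat1-/-AL replicate 3 thus lay above WTCR replicates 1 and 3. The mean of WTCR replicate 1 was the lowest of the 3 in both subunits. The calls were less alike, with 1 of 53 in the large subunit (1.89%) and 3 of 32 in the small (9.38%), beside 8.06% of all probe sets called in either direction. Of the brighter probe sets 7.66% were called higher and 6.32% lower. The difference between the subunits in the share called was not tested.

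Grouped by evolutionary origin, the 10 small subunit probe sets specific to mitochondria had the highest median in WTCR, 0.28. They held all 3 members called higher, beside 4.25% of all probe sets and 7.66% of the brighter ones. Their mean over probe sets was 0.20, 0.21 and 0.22 above WTAL in the 3 WTCR arrays, with -0.04 to 0.02 in the WTAL arrays. In 6 of the 10 all WTCR arrays exceeded all WTAL arrays, namely in Mrps26, Mrps23, both probe sets of Mrps33, Mrps34 (0.29) and Mrps35 (0.28), against 11.2% of all probe sets and 18.9% of the brighter ones. Mrps22 (-0.18 ± 0.15), Mrps25 (-0.15) and Mrps31 (-0.10) of the same class lay below 0 and were not called. The medians of the other classes were 0.07 for the 16 small subunit probe sets with a bacterial counterpart, 0.10 for the 32 large subunit probe sets with one and 0.12 for the 18 large subunit probe sets specific to mitochondria. The 5 members in none of these classes were Mrpl55, Mrpl57, Mrpl58, Mrps18b and Mrps28.

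**Figure D2:**
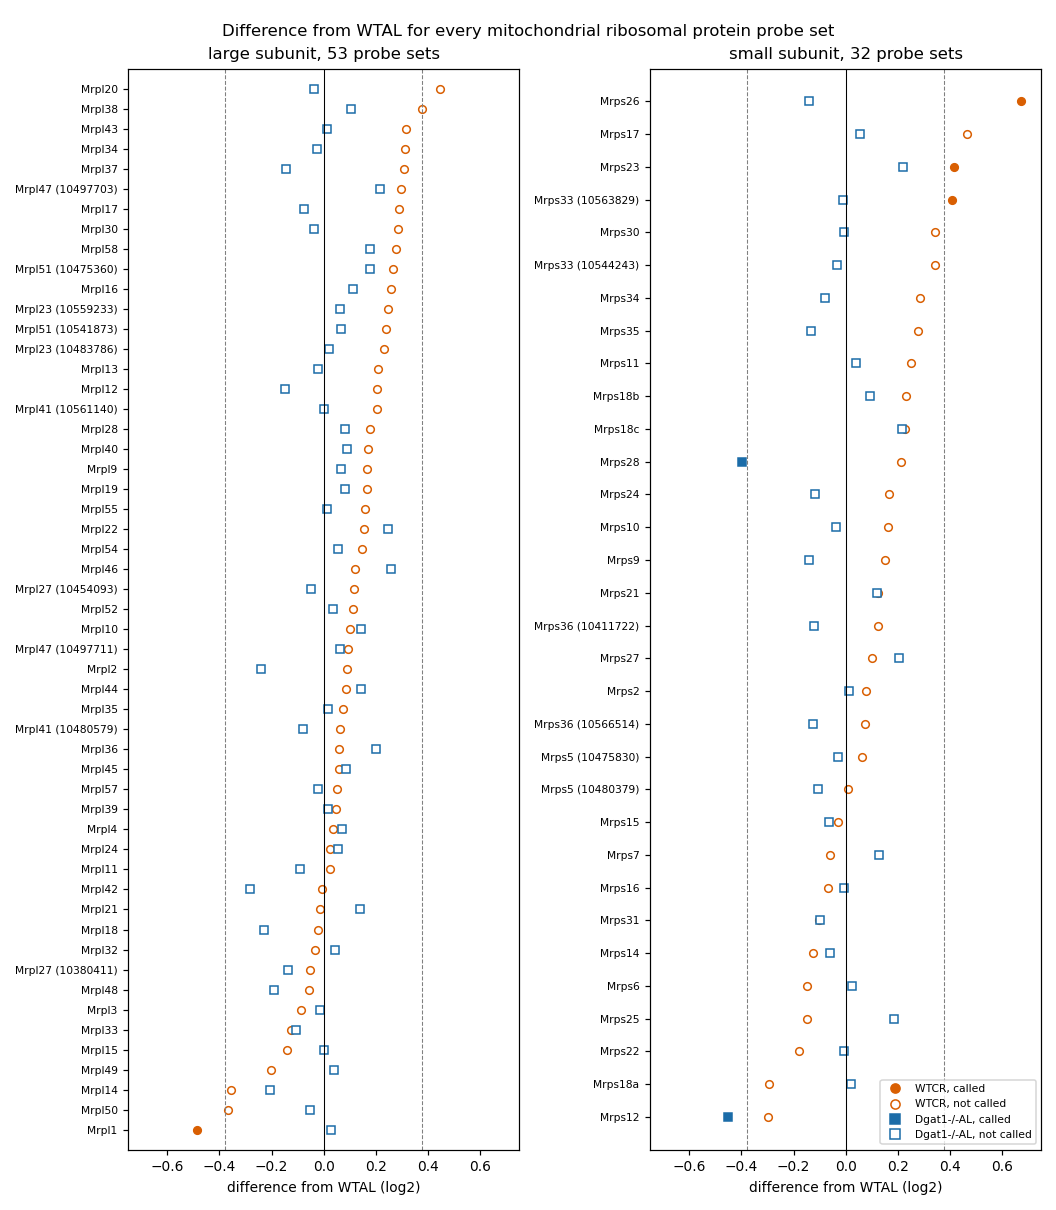
Difference from WTAL (x axis, log2) of all 85 probe sets (y axis), sorted by the WTCR difference within each subunit. Filled symbols were called and dashed lines mark a fold of 1.3. The WTCR circles run from -0.49 (Mrpl1) to 0.67 (Mrps26) with most above 0, and the Dgat1-/-AL squares scatter on both sides of 0.

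Among large subunit members, the 3 highest WTCR differences were those of Mrpl20, Mrpl38 and Mrpl43, and none was called. Mrpl20, a counterpart of a bacterial assembly protein, read 8.01, 7.71 and 7.56 in WTAL and 7.93, 8.38 and 8.32 in WTCR, so the groups overlapped, and its difference of 0.45 ± 0.21 missed the p threshold (adjusted p = 0.37). Mrpl38 (0.38 ± 0.17, adjusted p = 0.36) and Mrpl43 (0.32 ± 0.08, adjusted p = 0.090), both specific to mitochondria, were higher in all 3 WTCR arrays than in any WTAL array, but Mrpl38 missed both thresholds and Mrpl43 the fold threshold. At the other end, Mrpl50, also specific to mitochondria, read 8.59, 8.44 and 8.71 in WTAL and 8.29, 8.07 and 8.26 in WTCR. Its difference of -0.37 ± 0.09 (adjusted p = 0.076) fell just short of the fold threshold. Mrpl14 (-0.36 ± 0.16, adjusted p = 0.34), whose bacterial counterpart lies at the interface of the subunits, was lower in every WTCR array than in any WTAL array.

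Parts of the large subunit with a known function showed no call in WTCR. Mrpl10, Mrpl11 and Mrpl12, which form the stalk that recruits translation factors and its base, had differences of 0.10, 0.02 and 0.20, each with groups that overlapped. The 9 probe sets for 7 proteins around the exit tunnel (Mrpl22, Mrpl23, Mrpl24, Mrpl39, Mrpl44, Mrpl45 and Mrpl47) all lay above 0, with a median of 0.09 and 1 of them, a probe set of Mrpl47, at p under 0.05 (0.30 ± 0.12). In Dgat1-/-AL, compared with the same controls, all 9 also lay above 0 (median 0.06), and between WTCR and Dgat1-/-AL 5 lay above and 4 below 0 (median 0.03). In the small subunit, Mrps17 (0.46 ± 0.21, adjusted p = 0.35) was higher in all 3 WTCR arrays, from 7.21 to 7.75 against 6.76 to 7.17 in WTAL, and was not called.

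Of the symbols that name a protein placed elsewhere in the cell or the ribosome, Mrps18a and Mrps30 differed from WTAL in opposite directions without a call. Both proteins sit in the large subunit of the mammalian mitochondrial ribosome despite their names. Mrps30 read 7.65, 7.44 and 7.62 in WTAL and 7.80, 7.98 and 7.96 in WTCR, a difference of 0.34 ± 0.09 (adjusted p = 0.085). Mrps18a read 8.10, 8.08 and 8.28 in WTAL and 7.88, 7.93 and 7.75 in WTCR, a difference of -0.29 ± 0.09 (adjusted p = 0.12). Neither group pair overlapped, and both differences were under the fold threshold. Mrps36, whose protein belongs to the alpha-ketoglutarate dehydrogenase complex, gave 0.13 and 0.07 at its probe sets. With Mrps18a and Mrps30 counted as large and Mrps36 left out, the medians in WTCR were 0.11 for the large and 0.14 for the small subunit.

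The genes with a pair of probe sets allow a check within each array. Between the probe sets of 1 gene, the WTCR difference varied by 0.02 (Mrpl23) to 0.20 (Mrpl47). Only Mrpl27 gave opposite signs (-0.05 and 0.12), and neither was called. For Mrpl41 (0.06 and 0.20), Mrpl51 (0.27 and 0.24), Mrpl23 (0.23 and 0.25) and Mrps5 (0.06 and 0.0080) the signs were the same.

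In livers lacking DGAT1 (Dgat1-/-AL) no member was called higher and 2 were called lower by limma, beside 0.465% and 0.76% of all probe sets, with 2 members higher and 4 lower at an unadjusted p under 0.05 (1.95% and 2.62% of all probe sets). Adjusted over all probe sets, no probe set of the array passed 0.05 in this comparison. The members were spread evenly about WTAL, with 43 of 85 above 0 and a median of 0.01. All 3 Dgat1-/-AL arrays were higher than WTAL in 5 members and lower in 4 (5.88% and 4.71%). The shares were 3.16% and 3.86% of all probe sets and 4.25% and 4.62% of the brighter ones. The large subunit median was 0.02 and the small subunit median -0.02. By array, the mean over all members was -0.09, 0.00 and 0.08 relative to WTAL, and the lowest value belonged to Dgat1-/-AL replicate 1, the array that stood apart. Without that array the large subunit median was 0.07, and without replicate 3 it was -0.04, so its sign rested on single arrays.

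Both calls in Dgat1-/-AL were in the small subunit. Mrps12, the counterpart of a bacterial protein at the decoding centre, read 8.29, 7.85 and 8.37 in WTAL and 7.74, 7.62 and 7.78 in Dgat1-/-AL. All Dgat1-/-AL arrays were below all WTAL arrays, and the difference was -0.45 ± 0.13 (adjusted p = 0.97), a call that rests on the unadjusted p alone. The WTCR arrays of Mrps12 read 7.81, 7.98 and 7.82, a difference of -0.30 ± 0.13 that missed both thresholds. The Dgat1-/-AL call was lost without WTAL replicate 3 (-0.35). Mrps28 read 8.42, 8.01 and 8.18 in WTAL, 7.74, 7.83 and 7.85 in Dgat1-/-AL and 8.11, 8.66 and 8.47 in WTCR. Its Dgat1-/-AL values were the lowest of all 9 arrays, and the difference was -0.40 ± 0.15 (adjusted p = 0.97). With array weights (-0.37) the call ended, as it did on omission of WTAL replicate 1 (-0.29) or 3 (-0.41) and of Dgat1-/-AL replicate 1 (-0.37) or 2 (-0.41).

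The largest difference above 0 in Dgat1-/-AL was that of Mrpl46, a large subunit protein specific to mitochondria, with 7.64, 7.81 and 7.86 against 7.51, 7.44 and 7.60 in WTAL (0.26 ± 0.07, adjusted p = 0.97). Mrpl2, a counterpart of the bacterial protein near the peptidyl transferase centre, read 9.14, 9.10 and 9.26 in Dgat1-/-AL against 9.39 to 9.43 in WTAL (-0.24 ± 0.06, adjusted p = 0.97). The groups did not overlap for either gene, and both differences were under the fold threshold. Mrpl42 (-0.28), Mrpl18 (-0.23), Mrpl22 (0.25), a probe set of Mrpl47 (0.22), Mrps18c (0.22), Mrps23 (0.22), Mrps27 (0.21) and Mrps9 (-0.14) completed the extremes of their subunits, each with an unadjusted limma p over 0.05.

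Compared directly, WTCR and Dgat1-/-AL differed in 7 called members, 6 higher in WTCR and 1 lower. All probe sets gave 4.66% higher and 3.93% lower, and the brighter ones 8.35% and 6.89%. At an unadjusted p under 0.05 there were 17 members higher and 6 lower, against 8.96% and 6.87% of all probe sets, and Mrps26 and Mrps33 passed an adjusted p of 0.05 with the fold, as did 1.63% of all probe sets on the higher side. The 6 were Mrps26 (0.81 ± 0.11, 1.75-fold, adjusted p = 0.011), Mrps28 (0.61 ± 0.15, adjusted p = 0.070), Mrpl20 (0.49 ± 0.21, adjusted p = 0.31), Mrpl37 (0.45 ± 0.10, adjusted p = 0.055), Mrps33 (0.42 ± 0.09 at probe set 10563829, adjusted p = 0.040) and Mrps35 (0.41 ± 0.10, adjusted p = 0.064), with Mrpl1 lower (-0.51 ± 0.19, adjusted p = 0.21). Mrpl37, a large subunit protein specific to mitochondria, read 8.64, 8.79 and 8.75 in WTCR and 8.47, 8.12 and 8.23 in Dgat1-/-AL, with WTAL at 8.28 to 8.49. Mrps35, a small subunit protein of the same kind, read 8.03, 7.94 and 8.02 in WTCR and 7.41, 7.58 and 7.78 in Dgat1-/-AL. In both genes the groups did not overlap. Mrpl20 read 7.34, 7.70 and 8.14 in Dgat1-/-AL, overlapping its WTCR values. Its call ended with the replicate number as a block, in the model of these 2 groups alone, with array weights (0.37), after a second quantile normalization (0.47), without both arrays that stood apart (0.29), and without any 1 of 6 of the arrays (0.29 to 0.69 over all 9 omissions). Mrpl1 was no longer called in the model of the 2 groups alone, on omission of WTCR replicate 1 (-0.49) or 2 (-0.50), and on omission of Dgat1-/-AL replicate 2 (-0.34) or 3 (-0.44). Mrpl37 lost it without Dgat1-/-AL replicate 2 (0.38), Mrps35 without Dgat1-/-AL replicate 1 or both arrays that stood apart (0.32 in each) or with array weights (0.34), and Mrps33 without WTCR replicate 3 (0.35), while Mrps26 and Mrps28 kept it in all 9.

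Mrpl2 was the only other member with an adjusted p under 0.05 in this comparison (0.33 ± 0.06, adjusted p = 0.033), at a fold of 1.26. Its WTCR arrays read 9.52, 9.53 and 9.44, above WTAL, while its Dgat1-/-AL arrays lay below WTAL. Mrpl17 (0.36 ± 0.08, adjusted p = 0.059) was likewise higher in all WTCR arrays and under the fold threshold. Of the members lower in WTCR, Mrpl50 (-0.31 ± 0.09), Mrpl49 (-0.24 ± 0.09), Mrps25 (-0.34 ± 0.13), Mrps18a (-0.32 ± 0.09) and Mrps7 (-0.19 ± 0.08) had an unadjusted limma p under 0.05 without being called. Over all 85 members the median was 0.09, with 0.09 for the large and 0.15 for the small subunit. In 12 of 32 small subunit probe sets (37.5%) and 6 of 53 large subunit probe sets (11.3%) all WTCR arrays exceeded all Dgat1-/-AL arrays. The share was 9.05% of all probe sets and 14.4% of the brighter ones, so the large subunit lay below the latter. In 4 members all WTCR arrays were lower (7.1% of all probe sets). The 2 comparisons against WTAL share their controls, and no member was called in both.

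**Figure D3:**
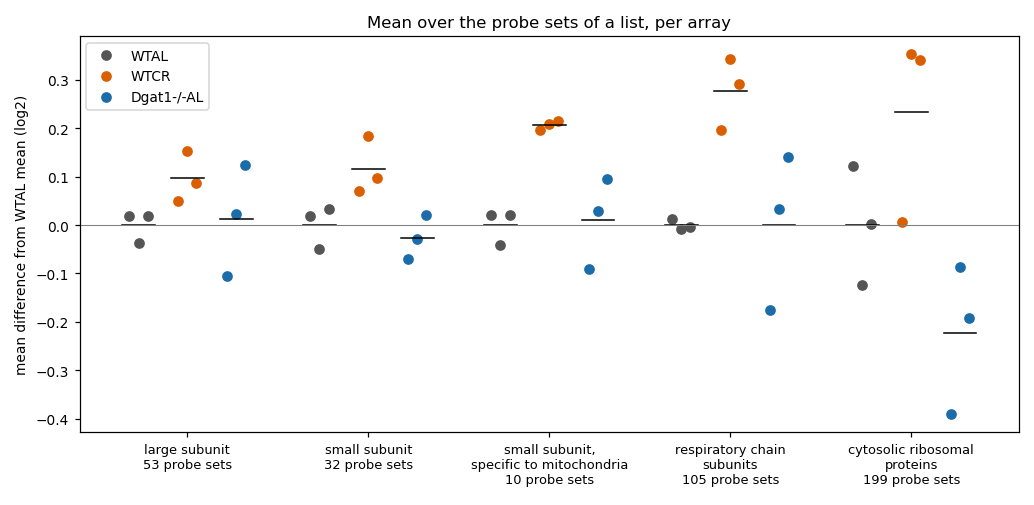
Mean over the probe sets of each list, as difference from the WTAL mean (y axis, log2), for each array (points) and group (colour), with group means as lines. Lists and their probe set numbers are on the x axis. The WTCR arrays of both subunits lie at 0.05 to 0.18, the respiratory chain at 0.20 to 0.34, and the cytosolic ribosomal proteins at 0.01 to 0.35.

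In WTCR the mitochondrial ribosomal proteins had a median closer to WTAL than the gene groups most like them. In Dgat1-/-AL they and the respiratory chain both lay near WTAL. Single arrays differed, as in WTCR replicate 1, where the mean was 0.06 for the members and 0.01 for the cytosolic ribosomal proteins. The 105 probe sets (81 genes) of nuclear respiratory chain and ATP synthase subunits had a WTCR median of 0.30, with 33 called higher and none lower by limma (50 higher and 0 lower at an unadjusted p under 0.05). The 199 probe sets of cytosolic ribosomal proteins, for only 51 genes, had a median of 0.23, with 37 called higher and 1 lower. Several of these calls can thus belong to 1 gene. All probe sets gave 4.25% called higher and 3.81% lower, and the brighter ones 7.66% and 6.32%. At an unadjusted limma p under 0.05 all probe sets gave 8.36% and 6.69%. In Dgat1-/-AL the respiratory chain median was 0.03 with no call by limma (3 higher at an unadjusted p under 0.05, as were 1.95% of all probe sets). The cytosolic ribosomal proteins had a median of -0.19 with 23 called lower. All probe sets gave 0.465% called higher and 0.76% lower. The medians of the mitochondrial ribosomal proteins thus lay at 0.12 and 0.01, where the cytosolic set lay at 0.23 and -0.19 and the respiratory chain at 0.30 and 0.03. These differences between lists are descriptions and were not tested.

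Markers of other liver cells also differed between groups. Of 12 macrophage and Kupffer cell markers, 11 lay below 0 in WTCR and 9 in Dgat1-/-AL, and their mean relative to WTAL ran from -0.64 to 0.03 in the WTCR arrays, from -0.59 to -0.15 in Dgat1-/-AL and from -0.39 to 0.21 in WTAL itself. Of these macrophage markers 3 were called lower and 1 higher (0.80) in WTCR, and 4 were called lower and 0 higher in Dgat1-/-AL. All 4 B cell markers were below 0 in both groups, at -1.10 to -1.01 in WTCR and -0.92 to -0.33 in Dgat1-/-AL against -0.26 to 0.40 in WTAL. All 4 were called lower in WTCR and 1 in Dgat1-/-AL. Of 6 T and NK cell markers 2 were called lower in WTCR, as were 2 of 6 stellate cell markers and 1 of 7 probe sets for sinusoidal endothelium. Of those 7 endothelial probe sets 2 were called higher and 2 lower in Dgat1-/-AL. All probe sets gave 4.25% called higher and 3.81% lower in WTCR, and 0.465% and 0.76% in Dgat1-/-AL. The part of these cells in the members' values was not tested.

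Other genes of mitochondrial translation and transcription, with regulators of nuclear mitochondrial genes, were called in WTCR more often than the 4 of 85 ribosomal proteins. This difference was not tested. Of 76 probe sets in 6 lists, 10 were called higher and 2 lower, where all probe sets gave 4.25% and 3.81% and the brighter ones 7.66% and 6.32%. Both probe sets of Tfb2m are among the 10. Among 13 probe sets for translation factors, Tufm, the elongation factor that delivers tRNAs, was higher by 0.52 ± 0.22, Gfm1, which moves the ribosome along the mRNA, by 0.46 ± 0.18, and Guf1, a related GTPase, by 0.38 ± 0.14. Mtif2, the initiation factor that brings the first tRNA, was lower by -0.41 ± 0.14. Tufm read 8.29, 8.73 and 8.71 in WTAL and 9.24, 9.01 and 9.05 in WTCR, with 9.465, 8.56 and 8.75 in Dgat1-/-AL, at probe set 10578984. The other probe set of Tufm (10557420) gave 0.47 ± 0.21 and was not called (adjusted p = 0.33). The adjusted p-values of the called factors were 0.185 (Mtif2), 0.24 (Guf1), 0.26 (Gfm1) and 0.31 (Tufm).

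Among 28 probe sets for assembly of the mitochondrial ribosome and processing of its RNA, 4 were higher in WTCR and none lower by limma (6 higher and 3 lower at an unadjusted p under 0.05). Mpv17l2, a membrane protein of large subunit assembly, read 8.46, 8.39 and 8.46 in WTAL and 9.33, 9.31 and 9.05 in WTCR, a difference of 0.79 ± 0.11 (adjusted p = 0.013). Grsf1, an RNA-binding protein of mitochondrial RNA granules, read 8.47, 8.98 and 8.61 in WTAL and 9.70, 9.31 and 9.50 in WTCR, a difference of 0.82 ± 0.15 (adjusted p = 0.029). Rpusd3, a pseudouridine synthase (0.52 ± 0.14), and Mtg1, a GTPase of large subunit assembly (0.42 ± 0.13), were called without an adjusted p under 0.05. Against Dgat1-/-AL the same WTCR arrays were higher by 0.85 (Mpv17l2), 0.57 (Grsf1), 0.47 (Rpusd3) and 0.53 (Mtg1). Since the 4 were picked by those WTCR arrays, these values are no separate support.

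Of 8 probe sets for transcription of mitochondrial DNA and stability of its mRNAs, both of Tfb2m, a transcription initiation factor, were higher in WTCR (0.39 and 0.39, each ± 0.09) and Mterf2, of the termination factor family, was lower (-0.56 ± 0.20), at a low signal of 4.01 to 5.01. Of 16 mitochondrial aminoacyl-tRNA synthetases none was called in WTCR by limma, with 2 higher at an unadjusted p under 0.05. The 4 ribosomal proteins under other symbols (Dap3, Ptcd3, Chchd1 and Gadd45gip1) had WTCR differences of 0.25, 0.32, -0.15 and 0.00 and were not called. Among 7 regulators of nuclear genes for mitochondrial proteins, Myc was called higher (0.69 ± 0.19, from 5.89 to 6.53 in WTAL to 6.69 to 6.96 in WTCR). Yy1 (0.22), Esrra (0.23), Nrf1 (0.21) and Gabpa (0.20) were higher in all WTCR arrays than in any WTAL array without a call. With Myc, 5 of the 7 separated in this way, against 11.2% of all probe sets and 18.9% of the brighter ones. Of the 7, 6 lay above 0 and 1 below (-0.034).

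In Dgat1-/-AL no probe set of these 6 lists was called against WTAL by limma, where all probe sets gave only 0.465% higher and 0.76% lower. At an unadjusted p under 0.05, 2 were higher and 3 lower, against 1.95% and 2.62% of all probe sets. Nrf1, which encodes the factor of that name, read 6.19, 6.45 and 6.49 in Dgat1-/-AL against 6.66 to 6.68 in WTAL (-0.29 ± 0.10, adjusted p = 0.97). Compared directly, Nrf1 was 0.50 ± 0.10 higher in WTCR (adjusted p = 0.036), as was Myc by 0.88 ± 0.19 (adjusted p = 0.045). Lower in WTCR than in Dgat1-/-AL were Gfm2, which splits the ribosome after termination (-0.42 ± 0.08, adjusted p = 0.032), Mtif2 (-0.52 ± 0.14), Taco1, a translational activator (-0.48 ± 0.12), the histidyl-tRNA synthetase Hars2 (-0.46 ± 0.11) and Mterf2 (-0.45 ± 0.20).

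**Figure D4:**
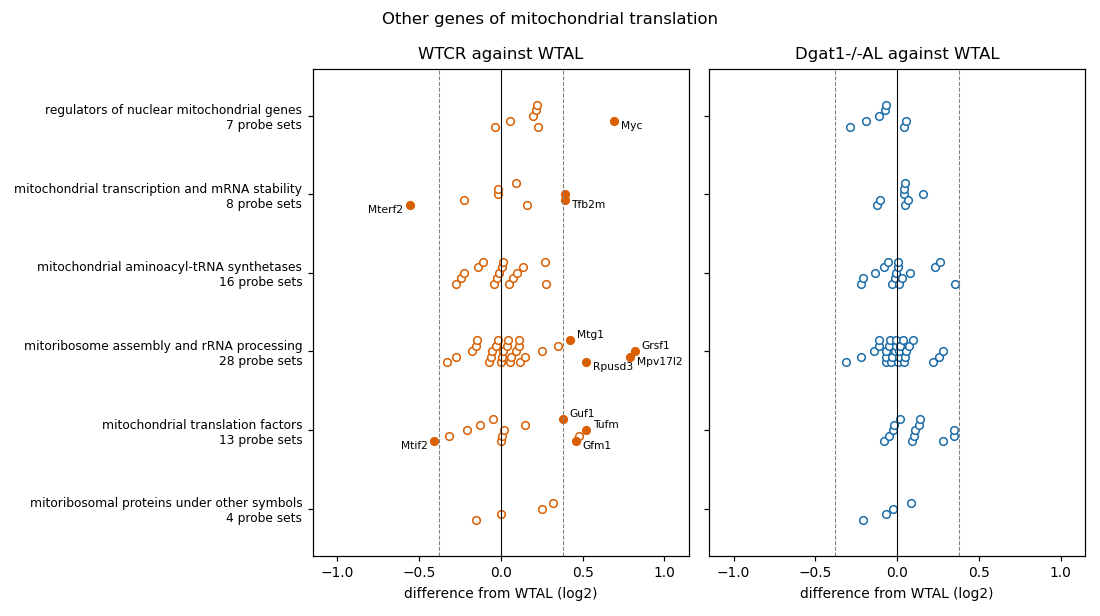
Difference from WTAL (x axis, log2) of the probe sets of 6 lists of other genes of mitochondrial translation and transcription and of regulators (y axis), in WTCR (left) and Dgat1-/-AL (right). Filled points were called and are named, and dashed lines mark a fold of 1.3. Grsf1 (0.82) and Mpv17l2 (0.79) lie farthest to the right in WTCR, and no point is filled in Dgat1-/-AL.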

How the data were processed

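Total RNA of 9 livers was hybridized to Affymetrix Mouse Gene 1.0 ST arrays, and the authors deposited log2 values made with RMA, a method that subtracts background, brings the arrays to a common distribution and combines the probes into a value per probe set. Its version is not given in the sources used here. Symbols came from the platform annotation, in which 21780 of 28815 probe sets carried 1 symbol. A probe set naming Mrpl53 together with another gene was no member. One mean per group was fitted to all probe sets and 9 arrays with lmFit and eBayes of limma 3.58.1 in R 4.3.3, 2-sided, with Benjamini-Hochberg adjustment over all probe sets, and the scripts were tested on simulated data. Following the study's methods, a probe set was called at a fold above 1.3 with p below 0.05 before adjustment. No test was made over members. The members and all lists were chosen with earlier results of these data known. Named were members called in any comparison, the 3 highest and 3 lowest of each subunit per comparison, members with several probe sets, Mrps18a, Mrps30 and Mrps36, called pathway genes and Dgat1. Other members, regulators without a call and divergent neighbours were named for their class, promoter or position, after their values were seen. With 3 arrays per group the number of arrays limits the precision. Deviations of WTCR and Dgat1-/-AL arrays with the same replicate number correlated at 0.48, 0.25 and 0.21 over all probe sets. Replicates 2 and 3 also correlated across numbers (0.18 and 0.18). Over the members these unlike pairs (0.32 and 0.40) exceeded the like pairs of replicates 2 and 3 (0.15 and 0.19). Only replicate 1 thus stood out as a pair. WTAL arrays did not pair by number with either group (-0.32 to 0.05). The number as a block was an alternative, as were other thresholds, filters, normalizations, array weights and leaving out arrays. Promoter windows of 250 bases came from RefSeq (GRCm38.p6), 1 per gene.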

Additional observations from a re-analysis of the deposited data

How the results depend on the processing

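With 3 arrays per group, single arrays set several counts. Over 1224 recomputed counts and medians 1100 stayed within the spread or within 1.5 times the count, and of 6114 recomputed member values none changed direction while called, 57 lost their call and 97 gained one. In WTCR against WTAL (3 members higher, 1 lower), the higher members numbered 14 with no fold threshold, 1 at a fold over 1.5, 5 with only the 2 groups compared and 5 with array weights. The lower members numbered 0 at an adjusted p under 0.05, 3 with no fold threshold, 0 at a fold over 1.5, 2 with array weights, 3 after a second quantile normalization and 3 without both arrays that stood apart. Large subunit calls were 0, 9, 0, 2 (only the 2 groups), 3 (array weights), 3 (quantile) and 3 (without both arrays), and small subunit calls were 8 with no fold threshold and 1 at a fold over 1.5. Pathway lists gave 2, 17 and 3 higher and 0, 6 and 0 lower at an adjusted p, no fold threshold and a fold over 1.5, and 1 lower among brighter probe sets. The respiratory chain median was 0.17 after quantile normalization. In Dgat1-/-AL against WTAL, no fold threshold gave 2 members higher, 4 lower, 4 large subunit calls and pathway counts of 2 higher and 3 lower. Lower members and small subunit calls were 0 at an adjusted p, 0 at a fold over 1.5 and 1 with array weights. Without both arrays there was 1 large subunit call, the stalk median turned from -0.09 to 0.0555 and the exit tunnel median was 0.155. In WTCR against Dgat1-/-AL, the adjusted p, no fold threshold and a fold over 1.5 gave 2, 17 and 2 members higher, 0, 6 and 0 lower, 0, 10 and 0 large subunit calls, 2, 13 and 2 small subunit calls and 3, 15 and 2 pathway probe sets higher, with 1 lower at the adjusted p and 0 at a fold over 1.5. With only these 2 groups there were 0 lower members and 1 large subunit call, and 2 lower members with array weights or without both arrays. Without both arrays the medians were 0.02825 (large, specific to mitochondria), 0.1585 (small, bacterial counterpart), 0.21 (small, specific, 0.195 by gene means) and 0.157 (respiratory chain, 0.195 after quantile normalization). With the replicate number as a block the members numbered 3 higher and 1 lower for WTCR and 0 and 2 for Dgat1-/-AL. In the direct comparison they numbered 5 and 1, or 7 and 1 with those 2 groups alone. Beyond Mrpl20, the block changed none of the calls described. The causes were not tested. Leaving out each array in turn, the results that moved spanned for WTCR against WTAL 2 to 7 (members higher), 0 to 3 (members lower), 0 to 4 (large subunit members called), 6 to 11 (pathway higher), 0 to 3 (pathway lower) and -0.026 to 0.178 (named small, placed elsewhere, median). They spanned for Dgat1-/-AL against WTAL 0 to 3 (members lower), 0 to 1 (large subunit members called), 0 to 2 (small subunit members called), 0 to 3 (pathway higher), -0.0334 to 0.0664 (large subunit, specific to mitochondria, median), -0.0815 to 0.0632 (small subunit, specific to mitochondria, median), -0.17 to 0.0337 (stalk of the large subunit, median) and 0.0413 to 0.17 (exit tunnel of the large subunit, median). They spanned for WTCR against Dgat1-/-AL 5 to 11 (members higher), 0 to 2 (members lower), 1 to 5 (large subunit members called), 4 to 7 (small subunit members called), 6 to 10 (pathway higher), 3 to 6 (pathway lower), 0.0223 to 0.165 (large subunit, median), 0.0283 to 0.189 (large subunit, specific to mitochondria, median), 0.0618 to 0.159 (small subunit, bacterial counterpart, median), 0.214 to 0.331 (small subunit, specific to mitochondria, median), 0.0978 to 0.302 (named small, placed elsewhere, median) and 0.157 to 0.363 (respiratory chain subunits, median).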

Other observations

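Many member genes share a start region with a gene on the other strand. Of the 68 genes with a RefSeq window, 26 had a divergent start within 1000 bases, 21 of them within 250 bases. Mrpl46 and Mrps11 are such a pair, with starts 42 bases apart. The other partners measured gave 23 probe sets for 22 genes. In WTCR against WTAL limma called 2 of the 23, both higher. The shares over all probe sets were 4.25% called higher and 8.06% called in either direction. Whether the partners differ from the array at large was not tested. Ndufb5, a subunit of respiratory complex I whose start lies 308 bases from that of Mrpl47, was higher by 0.42 ± 0.06 (adjusted p = 0.015), with 9.82, 9.95 and 9.93 in WTAL and 10.30, 10.37 and 10.29 in WTCR. Tcp1, a subunit of the cytosolic chaperonin whose start lies 238 bases from that of Mrpl18, was higher by 0.49 ± 0.13 (adjusted p = 0.090), while Mrpl18 itself gave -0.02 ± 0.11. The partners of called members were not called. Sars2, 147 bases from Mrps12, gave 0.13 ± 0.22 in WTCR and 0.08 ± 0.22 in Dgat1-/-AL, the group in which Mrps12 was called. Cyb5rl, 128 bases from Mrpl37, gave -0.01 ± 0.06 in WTCR against WTAL. In WTCR against Dgat1-/-AL, where Mrpl37 was called, Cyb5rl gave -0.08 ± 0.06. The partner 4930473A02Rik, 8 bases from Mrps26, gave 0.0010 ± 0.08 in WTCR against WTAL at a low signal of 4.49 to 4.76.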
